A study of Mus musculus with 11 samples.

Results

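The genes described here are 10 genes of bile acid synthesis, conjugation, uptake and feedback in mouse liver: Cyp7a1, Cyp8b1, Akr1d1, Cyp27a1, Cyp7b1, Slc27a5, Baat, Slc10a1, Nr1h4 and Nr0b2. Each was read from the probe set that carries its symbol and no other. All 10 had exactly 1 such probe set, among 19938 genes with a single-symbol probe set and 35556 probe sets in all. The series holds 11 Affymetrix whole-transcript arrays of total RNA from whole liver, and each value is a log2 expression value, on which a difference of 1 is a doubling of the signal. All mice were males of the strain labelled C57/BL6, aged 8 to 9 weeks and fed standard chow. There were 3 arrays of Nemo/TNFR1 dKO livers, which lack Nemo in hepatocytes and TNFR1 constitutively, 2 of Nemo/TRAIL dKO livers, which lack Nemo in hepatocytes and TRAIL constitutively, 3 of Nemo KO livers, which lack Nemo in hepatocytes alone, and 3 of wild-type (WT) livers. The Nemo gene was flanked by loxP sites and deleted in hepatocytes. The promoter that drove the Cre recombinase is not named in the labels. Ikbkg is the gene of Nemo, a subunit without enzyme activity that the IκB kinase needs in order to activate NF-κB. TNFR1 is a receptor for tumour necrosis factor, and TRAIL is a death ligand. The labels call the arrays replicates without naming separate animals, so the spread behind each p-value is that between these samples and may be technical.

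Bile acids are made from cholesterol in hepatocytes. In the classical route Cyp7a1 adds the first hydroxyl group, Cyp8b1 adds the hydroxyl that makes cholic acid, and Akr1d1 reduces the steroid ring. In the alternative route Cyp27a1 oxidises the side chain and Cyp7b1 hydroxylates the resulting oxysterols. Slc27a5 activates bile acids with coenzyme A, Baat joins them to taurine or glycine, and the sodium-dependent transporter Slc10a1 (NTCP) takes conjugated bile acids back up from portal blood. Bile acids activate the nuclear receptor FXR, encoded by Nr1h4. FXR induces Nr0b2 (SHP), a corepressor that acts on Cyp7a1 and Cyp8b1, in part through the nuclear receptor Nr5a2 (LRH-1) that binds their promoters. Cyp7a1 also follows a daily rhythm.

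Before the genes themselves, 4 facts of the arrays bear on them. WT replicate 3 stood apart in pancreatic acinar markers: the mean of 10 measured markers was 11.48 log2 units there and 5.50 to 5.87 in the other 10 arrays. A code in the array names is common to WT and Nemo KO and is another one in either double knockout. The labels do not explain it, and if it stands for a batch, batch and genotype cannot be told apart for the double knockouts. The targeted gene Ikbkg was lower than in WT by -0.45 ± 0.08 log2 units (SE, adjusted p = 0.00818 in limma) in Nemo/TNFR1 dKO, -0.41 ± 0.09 (adjusted p = 0.0239) in Nemo/TRAIL dKO and -0.24 ± 0.08 (adjusted p = 0.106) in Nemo KO. Neither Tnfrsf1a in Nemo/TNFR1 dKO (-0.27 ± 0.09, adjusted p = 0.586) nor Tnfsf10 in Nemo/TRAIL dKO (-0.37 ± 0.19, adjusted p = 1) passed the test against Nemo KO. Against WT, Tnfrsf1a was not lower in Nemo/TNFR1 dKO (0.07 ± 0.09, adjusted p = 0.67), was higher in Nemo KO (0.35 ± 0.09, adjusted p = 0.0401), and Tnfsf10 differed by -0.65 ± 0.19 in Nemo/TRAIL dKO (adjusted p = 0.0749). These values do not check the TNFR1 and TRAIL labels, since a probe set outside the deleted part checks nothing and the deleted parts are not given. The mean of 15 measured hepatocyte markers lay between 13.18 and 13.27 in Nemo/TNFR1 dKO and 13.23 and 13.27 in Nemo/TRAIL dKO arrays. It lay between 13.24 and 13.25 in Nemo KO and 13.21 and 13.35 in WT arrays. Of these markers only Serpina1c passed against WT, at -0.25 ± 0.06 in Nemo/TNFR1 dKO (adjusted p = 0.0281). The markers lie high on a scale whose highest value was 14.39.

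Nr0b2, the FXR-induced corepressor, fell in Nemo/TNFR1 dKO and in Nemo KO livers. Its values were 8.09, 8.66 and 8.41 log2 units in Nemo/TNFR1 dKO, 9.05 and 9.03 in Nemo/TRAIL dKO, 8.54, 8.69 and 8.49 in Nemo KO, and 9.97, 9.43 and 9.69 in WT. All 8 Nemo-deficient arrays lay below all 3 WT arrays, and both Nemo/TRAIL dKO arrays lay above the other 6 Nemo-deficient ones. The fall from WT in Nemo/TNFR1 dKO was -1.31 ± 0.16 (SE, adjusted p = 0.00136 in limma), which is 0.402 of the WT signal. It also fell in Nemo KO, by -1.12 ± 0.16 (adjusted p = 0.00269) or 0.459 of WT. In Nemo/TRAIL dKO the difference was -0.66 ± 0.18 and missed the threshold (adjusted p = 0.0568), though it passed after quantile normalization (0.044), after median centring (0.0486), over probe sets above the median signal (0.0286) and over single-symbol probe sets (0.0247). The falls in Nemo/TNFR1 dKO and Nemo KO passed in all 11 fits that left out 1 array.

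The Nr0b2 promoter and that of Cyp8b1 are shown because both genes are known targets of NR5A2, whose known binding site contains the letters CAAGG, searched here as TCAAGG and as CCAAGG. Nr0b2 fell in this experiment, and Cyp8b1 was lower in every Nemo-deficient array than in any WT array. Each sequence is the 250 bases before the transcription start in RefSeq (GRCm38.p6), 5′ to 3′ on the gene's strand, at chr4:133553126-133553375 (plus strand) for Nr0b2 and chr9:121916306-121916555 (minus strand) for Cyp8b1. Capitals mark TCAAGG in the first and CCAAGG in the second, and the TATA element TATAAA in both.
Nr0b2: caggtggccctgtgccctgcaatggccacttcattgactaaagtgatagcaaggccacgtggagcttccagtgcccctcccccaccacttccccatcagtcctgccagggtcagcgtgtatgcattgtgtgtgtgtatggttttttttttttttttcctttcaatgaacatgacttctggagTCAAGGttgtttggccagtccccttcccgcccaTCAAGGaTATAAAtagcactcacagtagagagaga
Cyp8b1: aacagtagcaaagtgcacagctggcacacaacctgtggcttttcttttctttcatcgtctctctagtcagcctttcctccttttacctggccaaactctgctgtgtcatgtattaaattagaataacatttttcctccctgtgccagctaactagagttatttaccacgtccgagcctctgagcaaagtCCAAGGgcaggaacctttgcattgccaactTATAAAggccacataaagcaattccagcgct
Counting the last base before the start as -1, TCAAGG lies at -68 to -63 and again at -35 to -30 in Nr0b2, just before TATAAA at -28 to -23. In Cyp8b1 CCAAGG lies at -61 to -56 and TATAAA at -31 to -26. Searched on both strands of windows that run from 250 bases before to 50 after the start, TCAAGG is found in 14.4% of 32851 mouse promoters, CCAAGG in 21.4% and TATAAA in 13.6%. These 3 motifs were searched after the letters of the windows had been read. AGGTCA, the core motif of many nuclear receptor sites, is found in 16.3% of all windows and in neither of these. It is in the windows of Akr1d1, at -232 to -227 and -210 to -205 (the last overlapping a TCAAGG at -213 to -208), of Nr1h4, at -214 to -209, and of 1 of the 2 Slc10a1 starts, at -87 to -82. The other Slc10a1 start held CCAAGG at -162 to -157 and TATAAA at -128 to -123, both on the opposite strand. These letters were thus not particular to the printed promoters. No window of these genes held the inverted or direct repeat of that core motif with 1 spacer base, which are found in 0.00913% and 0.0396% of all windows, or the longer TCAAGGTCA (0.423%). Only these exact letters were searched, and they are so rare that their absence from a few windows decides nothing. Sites with other letters or farther from the start were not examined. In all, 6 of the 10 genes had a promoter in the table, and Cyp7a1, Cyp7b1, Baat and Slc27a5 were not examined.

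Nr1h4, which encodes FXR itself, passed the test in none of the comparisons. It measured 9.88, 9.89 and 9.60 log2 units in Nemo/TNFR1 dKO, 9.34 and 9.70 in Nemo/TRAIL dKO, 9.90, 9.59 and 9.43 in Nemo KO, and 9.92, 9.76 and 9.74 in WT. The groups overlapped except for both Nemo/TRAIL dKO arrays, which lay below the WT arrays. Its difference from WT was -0.02 ± 0.14 in Nemo/TNFR1 dKO (SE, adjusted p = 0.952, 95% interval -0.34 to 0.30). The corresponding values were -0.29 ± 0.16 in Nemo/TRAIL dKO (adjusted p = 0.345, interval -0.65 to 0.07) and -0.17 ± 0.14 in Nemo KO (adjusted p = 0.505, interval -0.49 to 0.15).

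Among the genes of the classical route, Cyp7a1, the rate-limiting enzyme, did not pass in any comparison. Its values were 11.81, 10.86 and 11.45 in Nemo/TNFR1 dKO, 11.02 and 11.24 in Nemo/TRAIL dKO, 10.95, 10.01 and 9.92 in Nemo KO, and 11.53, 11.18 and 10.19 in WT. The WT arrays alone spanned more than a log2 unit, and WT replicate 3, the array with acinar transcripts, was the lowest of them. Both double knockouts averaged above WT, by 0.40 ± 0.39 in Nemo/TNFR1 dKO (adjusted p = 0.587, 95% interval -0.47 to 1.27) and 0.16 ± 0.43 in Nemo/TRAIL dKO (adjusted p = 0.879, interval -0.81 to 1.13), and Nemo KO averaged below it by -0.67 ± 0.39 (adjusted p = 0.314, interval -1.54 to 0.19). Without WT replicate 3 the Nemo/TRAIL dKO difference turned to -0.23. Cyp7a1 was the only 1 of the 10 genes whose mean lay above WT in any Nemo-deficient genotype.

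Cyp8b1, the sterol 12-alpha-hydroxylase, was nearly constant in WT and scattered in the mutants. It measured 11.62, 10.15 and 9.62 in Nemo/TNFR1 dKO, 9.85 and 10.91 in Nemo/TRAIL dKO, 11.04, 9.81 and 9.44 in Nemo KO, and 11.86, 11.66 and 11.69 in WT. The standard deviation was 1.04 in Nemo/TNFR1 dKO, 0.75 in Nemo/TRAIL dKO and 0.84 in Nemo KO, and 0.11 in WT. All 8 Nemo-deficient arrays were below the lowest WT array, in Nemo/TNFR1 dKO replicate 1 by less than 0.1. Its mean differences from WT were among the largest of the 10 genes: -1.27 ± 0.54 in Nemo/TNFR1 dKO (adjusted p = 0.196), -1.36 ± 0.60 in Nemo/TRAIL dKO (adjusted p = 0.235) and -1.64 ± 0.54 in Nemo KO (adjusted p = 0.0954), and none passed.

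Akr1d1, the steroid 5-beta-reductase, had values of 10.60, 9.76 and 9.98 in Nemo/TNFR1 dKO, 9.44 and 9.95 in Nemo/TRAIL dKO, 9.77, 9.99 and 9.76 in Nemo KO, and 10.47, 10.46 and 10.30 in WT. Nemo/TNFR1 dKO replicate 1 was above every WT array, and the other 7 Nemo-deficient arrays were below them. The differences from WT, -0.30 ± 0.20 in Nemo/TNFR1 dKO (adjusted p = 0.437), -0.71 ± 0.23 in Nemo/TRAIL dKO (adjusted p = 0.101) and -0.57 ± 0.20 in Nemo KO (adjusted p = 0.122), did not pass.

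In the alternative route, Cyp7b1 had the largest difference of all 10 genes. Its values were 8.17, 9.46 and 9.43 in Nemo/TNFR1 dKO, 10.51 and 8.97 in Nemo/TRAIL dKO, 11.04, 10.39 and 10.21 in Nemo KO, and 11.96, 11.27 and 12.01 in WT. All Nemo-deficient arrays lay below WT, and within them all 3 Nemo/TNFR1 dKO arrays lay below all 3 Nemo KO arrays. Against WT it fell by -2.72 ± 0.46 in Nemo/TNFR1 dKO (SE, adjusted p = 0.00588), to 0.151 of the WT signal, and by -2.00 ± 0.51 in Nemo/TRAIL dKO (adjusted p = 0.0457), to 0.25 of it. In Nemo KO the difference of -1.20 ± 0.46 did not pass (adjusted p = 0.145, 95% interval -2.23 to -0.17). The fall in Nemo/TNFR1 dKO passed with any 1 array left out. That in Nemo/TRAIL dKO passed in 2 of those 11 fits, without Nemo/TRAIL dKO replicate 1 or without Nemo/TNFR1 dKO replicate 1. It was -2.77 without Nemo/TRAIL dKO replicate 1 and -1.23 (adjusted p = 0.279) without replicate 2, and with any of the other 8 arrays left out the adjusted p lay between 0.055 and 0.112.

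Cyp27a1, the mitochondrial side-chain oxidase of the same route, moved much less. It measured 12.16, 11.65 and 11.94 in Nemo/TNFR1 dKO, 11.96 and 12.08 in Nemo/TRAIL dKO, 11.89, 11.94 and 11.87 in Nemo KO, and 12.38, 12.29 and 12.25 in WT. Every Nemo-deficient array was again below every WT array. The differences from WT were -0.39 ± 0.11 in Nemo/TNFR1 dKO (adjusted p = 0.0662), -0.29 ± 0.13 in Nemo/TRAIL dKO (adjusted p = 0.236) and -0.40 ± 0.11 in Nemo KO (adjusted p = 0.0566), and each missed the threshold. The Nemo KO difference was a near miss: it passed under 6 of the 7 settings that kept all arrays of both groups (adjusted p = 0.0182 to 0.0451), the replicate block being the exception, and without Nemo/TNFR1 dKO replicate 1 (0.0209) or 2 (0.0154). That in Nemo/TNFR1 dKO passed over probe sets above the median signal (0.0348), with a variance trend (0.0486), over single-symbol probe sets (0.0339) and without its replicate 1 (0.0126).

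**Figure D1:**
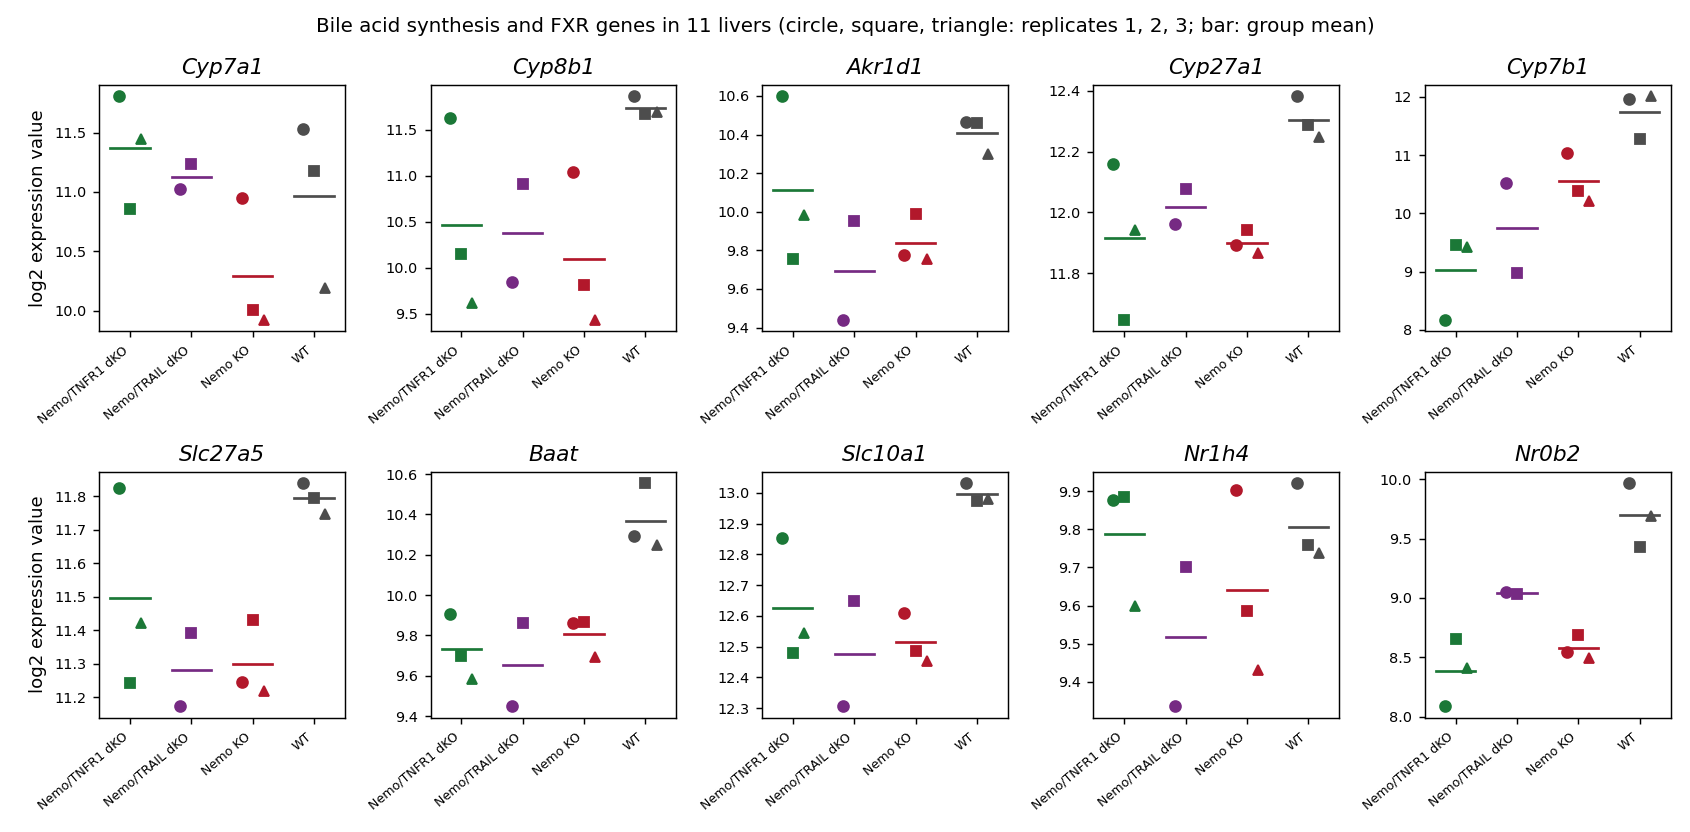
Log2 expression value of each gene in every array, with the genotypes along the horizontal axis and a vertical axis of its own for each gene; circles, squares and triangles are replicates 1, 2 and 3 and bars are group means. In Cyp8b1, Cyp27a1, Cyp7b1, Slc10a1, Nr0b2 and Baat all 8 Nemo-deficient arrays sit below all 3 WT arrays. In Cyp7a1 and Nr1h4 the Nemo-deficient arrays as a whole overlap with WT, though both Nemo/TRAIL dKO arrays of Nr1h4 sit below WT.

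Of the conjugating enzymes, Baat fell in all 3 genotypes. Its values were 9.91, 9.70 and 9.59 in Nemo/TNFR1 dKO, 9.45 and 9.86 in Nemo/TRAIL dKO, 9.86, 9.87 and 9.70 in Nemo KO, and 10.29, 10.56 and 10.25 in WT. No Nemo-deficient array reached the WT range. The fall was -0.64 ± 0.13 in Nemo/TNFR1 dKO (SE, adjusted p = 0.0163), -0.71 ± 0.15 in Nemo/TRAIL dKO (adjusted p = 0.0183) and -0.56 ± 0.13 in Nemo KO (adjusted p = 0.0285), or 0.644, 0.611 and 0.679 of the WT signal in that order. It is the 1 gene of the 10 that passed against WT in each genotype, but 1 array could end each of these calls. In Nemo/TNFR1 dKO the adjusted p was 0.0587 without its replicate 2, 0.0658 without its replicate 3 and 0.0583 without WT replicate 2. In Nemo/TRAIL dKO it was 0.16 without its replicate 1 and 0.0544 without WT replicate 2. In Nemo KO it lay between 0.0552 and 0.104 without any of the 3 Nemo KO arrays or without WT replicate 1 or 2.

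Slc27a5, the bile acid-CoA synthetase that works before Baat, measured 11.82, 11.24 and 11.42 in Nemo/TNFR1 dKO, 11.17 and 11.39 in Nemo/TRAIL dKO, 11.25, 11.43 and 11.22 in Nemo KO, and 11.84, 11.79 and 11.75 in WT. Nemo/TNFR1 dKO replicate 1 lay within the WT range and the other 7 mutant arrays below it. None of the differences from WT passed: -0.30 ± 0.14 in Nemo/TNFR1 dKO (adjusted p = 0.235), -0.51 ± 0.15 in Nemo/TRAIL dKO (adjusted p = 0.0809) and -0.50 ± 0.14 in Nemo KO (adjusted p = 0.0531). The last passed under 5 of the 7 settings that kept all arrays of both groups (adjusted p = 0.0174 to 0.0442), and the Nemo/TRAIL dKO difference over probe sets above the median signal (0.043) and over single-symbol probe sets (0.0403).

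Slc10a1, the uptake transporter, had values of 12.85, 12.48 and 12.54 in Nemo/TNFR1 dKO, 12.31 and 12.65 in Nemo/TRAIL dKO, 12.61, 12.49 and 12.45 in Nemo KO, and 13.03, 12.97 and 12.98 in WT. All 8 mutant arrays were below WT, where the standard deviation was 0.03. The fall was -0.52 ± 0.13 (SE) in Nemo/TRAIL dKO, with an adjusted p = 0.0391, and -0.48 ± 0.11 in Nemo KO (adjusted p = 0.0303), to 0.698 and 0.718 of the WT signal. In Nemo/TNFR1 dKO its difference of -0.37 ± 0.11 did not pass (adjusted p = 0.0819). The call in Nemo KO was lost without Nemo KO replicate 2 or 3 or any of the 3 WT arrays (adjusted p = 0.0654 to 0.104). The call in Nemo/TRAIL dKO passed in 3 of the 11 fits, without Nemo/TNFR1 dKO replicate 1 or 2 or Nemo/TRAIL dKO replicate 2. It was lost without any of the other 8 arrays, with adjusted p between 0.0533 and 0.284, the highest without Nemo/TRAIL dKO replicate 1. In whole-liver RNA, fewer cells of a type and less RNA per cell cannot be told apart.

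The comparison of Nemo/TNFR1 dKO with WT asked what separates livers that lack both Nemo in hepatocytes and TNFR1 from normal ones. Cyp7b1, Nr0b2 and Baat fell, the other 7 genes did not pass, and 9 of the 10 had a mean below WT. These 3 of 10 stand beside 9.18% of all probe sets called in this comparison, of which 3.35% lower and 5.83% higher. An unadjusted p below 0.05 was found for 6 of the 10 genes and for 23% of all probe sets. In 6 genes the groups did not overlap and Nemo/TNFR1 dKO was lower, as in 13.9% of all probe sets. The median difference was -0.38 over the 10 genes and -0.04 over all probe sets. The count changed when single arrays were left out. It was 2 without WT replicate 2 and without Nemo/TNFR1 dKO replicate 2 or 3, where 2157, 1970 and 1926 of all probe sets passed. Without Nemo/TNFR1 dKO replicate 1, 7 genes passed, as did 3342 of all 35556 probe sets. Among the 7 were Cyp8b1 (-1.85, adjusted p = 0.0415), Cyp27a1 (-0.51, adjusted p = 0.0126), Slc27a5 (-0.46, adjusted p = 0.0242) and Slc10a1 (-0.48, adjusted p = 0.022). Without WT replicate 3 the count was 3, and 2787 of all probe sets passed.

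In Nemo/TRAIL dKO against WT, Cyp7b1, Slc10a1 and Baat fell and 9 of the 10 means were lower. Of all probe sets 7.55% were called here, 2.64% lower and 4.91% higher, and an unadjusted p below 0.05 was found for 8 of the 10 genes and 21.2% of all probe sets. In all 9 of those genes neither Nemo/TRAIL dKO array overlapped with WT, against 21.1% of all probe sets that lay lower without overlap. The median difference was -0.59 over the 10 genes and -0.05 over all probe sets. With the arrays of these 2 groups alone in the fit, none of the 10 passed (Cyp7b1 adjusted p = 0.116, Slc10a1 0.0999 and Baat 0.0994), and 1244 of 35556 probe sets passed in place of 2684. Without WT replicate 3, 1 gene passed, as did 2404 of all probe sets. Without Nemo/TNFR1 dKO replicate 1, 6 genes passed, Nr0b2 (adjusted p = 0.0321), Slc27a5 (0.0174) and Akr1d1 (0.0253) among them. In that fit 2884 of all probe sets passed. Nr0b2 also passed without Nemo/TNFR1 dKO replicate 2 (adjusted p = 0.0422) and without WT replicate 2 (-0.79, adjusted p = 0.0387), and missed the threshold without any of the other 8 arrays (0.0778 to 0.215).

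In Nemo KO against WT, the comparison for Nemo loss in hepatocytes by itself, all 10 genes had lower means and Nr0b2, Slc10a1 and Baat passed. The background was 9.29% of all probe sets called, 3.21% lower and 6.08% higher, and an unadjusted p below 0.05 was found for 8 of the 10 genes and 24.8% of all probe sets. In 8 genes the 2 groups did not overlap, as against 17.4% of all probe sets that lay lower without overlap, and Cyp7a1 and Nr1h4 were the other 2. The median difference was -0.56 over the 10 genes and -0.05 over all probe sets. With the arrays of these 2 groups alone in the fit, 6 genes passed, Cyp27a1 (adjusted p = 0.0182), Slc27a5 (0.0174) and Akr1d1 (0.0176) among them. The number of all probe sets that passed in that fit is not given here. Without Nemo/TNFR1 dKO replicate 1, which adds to the shared estimate of the spread, 7 genes passed, the same 3 and Cyp8b1 (adjusted p = 0.0418) among them. In that fit 3549 of all 35556 probe sets passed, against 3304 with all arrays. Without WT replicate 3, 2 genes passed, as did 2869 of all probe sets. The 3 comparisons share their WT arrays, so their results are not independent of each other.

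**Figure D2:**
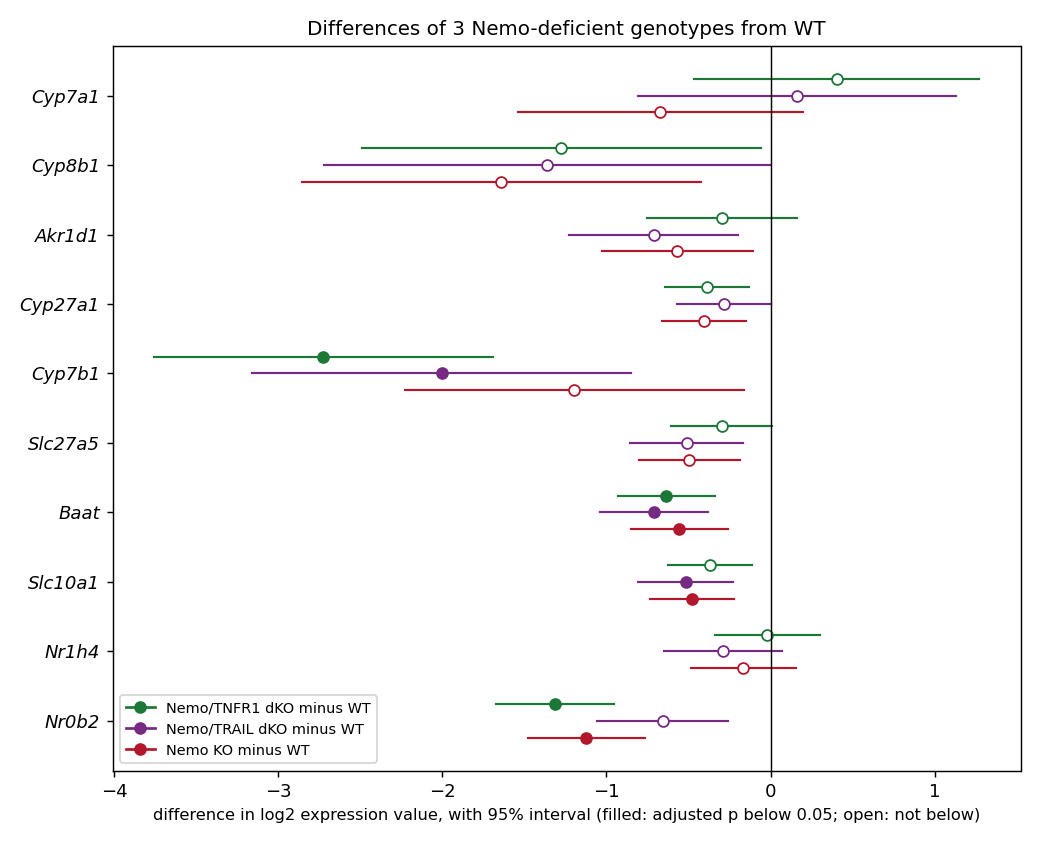
Difference in log2 expression value of each Nemo-deficient genotype from WT (horizontal axis) for each gene, with 95% intervals from the limma fit; filled points passed at an adjusted p below 0.05. Baat is filled in all 3 genotypes, Cyp7b1 lies farthest left at -2.72 in Nemo/TNFR1 dKO, and only Cyp7a1 has points above 0.

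A test of each gene for any difference among the 4 genotypes (moderated F test in limma, adjusted over all probe sets) called Nr0b2 (adjusted p = 0.00393), Cyp7b1 (adjusted p = 0.0236) and Baat (adjusted p = 0.0306), 3 of 10 beside 7.28% of all probe sets. In 6 genes, namely Cyp8b1, Cyp27a1, Cyp7b1, Slc10a1, Nr0b2 and Baat, all 8 Nemo-deficient arrays lay below all 3 WT arrays, as in 7.14% of all probe sets. In the order of the group means, WT was highest in 9 genes and second from the bottom in Cyp7a1, where the order was Nemo/TNFR1 dKO, Nemo/TRAIL dKO, WT and Nemo KO. Of the 30 steps between neighbours in these orders, 1 passed the test, that of Baat between Nemo KO and WT. The neighbours were set by sorting the same means, so the wider gaps between genotypes are not among these steps. The count is a description, and its share over all probe sets is not given here. Without Nemo/TNFR1 dKO replicate 1 the F test called 6 of the 10, and without WT replicate 3 it called 1. The 7.28% belongs to the fit of all arrays. The share of all probe sets called in those smaller fits is not given here, so these counts have no background beside them.

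The comparisons among the Nemo-deficient genotypes asked what the added loss of TNFR1 or TRAIL changes. None of the 10 genes passed in any of them in limma. Adding the TNFR1 knockout to Nemo deficiency, 0.0337% of all probe sets passed, and 2 of the 10 genes had an unadjusted p below 0.05, as did 6.86% of all probe sets. They were Cyp7b1, lower by -1.53 ± 0.46 in Nemo/TNFR1 dKO than in Nemo KO (SE, adjusted p = 0.526, 95% interval -2.56 to -0.49) without overlap between the groups (5.84% of all probe sets lay lower in this way), and Cyp7a1, higher by 1.08 ± 0.39 (adjusted p = 0.65, interval 0.21 to 1.94) with overlapping groups. The other 8 differences ran from -0.19 to 0.37.

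In Nemo/TRAIL dKO against Nemo KO, 0.00562% of all probe sets passed and 4.04% had an unadjusted p below 0.05, among the 10 genes 1. That gene was Nr0b2, at 0.46 ± 0.18 (adjusted p = 1, 95% interval 0.06 to 0.86). Nr0b2, Cyp7a1 (0.83 ± 0.43) and Cyp27a1 (0.12 ± 0.13) lay higher in both Nemo/TRAIL dKO arrays than in all 3 Nemo KO arrays, as did 8.97% of all probe sets. Cyp7b1 differed by -0.80 ± 0.51 (interval -1.96 to 0.35) with overlap.

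Between the double knockouts, 0.0478% of all probe sets passed and 5.03% had an unadjusted p below 0.05, among the 10 genes again Nr0b2 alone. It was lower in Nemo/TNFR1 dKO than in Nemo/TRAIL dKO by -0.66 ± 0.18 (adjusted p = 0.76, 95% interval -1.06 to -0.26), and all 3 arrays of the first lay below both of the second, as in 8.21% of all probe sets. Cyp7a1 and Cyp8b1 differed by 0.24 ± 0.43 and 0.09 ± 0.60. The intervals of these comparisons are wide: for Cyp8b1 it ran from -1.27 to 1.44, so that a difference of more than 2-fold either way is inside it.

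**Figure D3:**
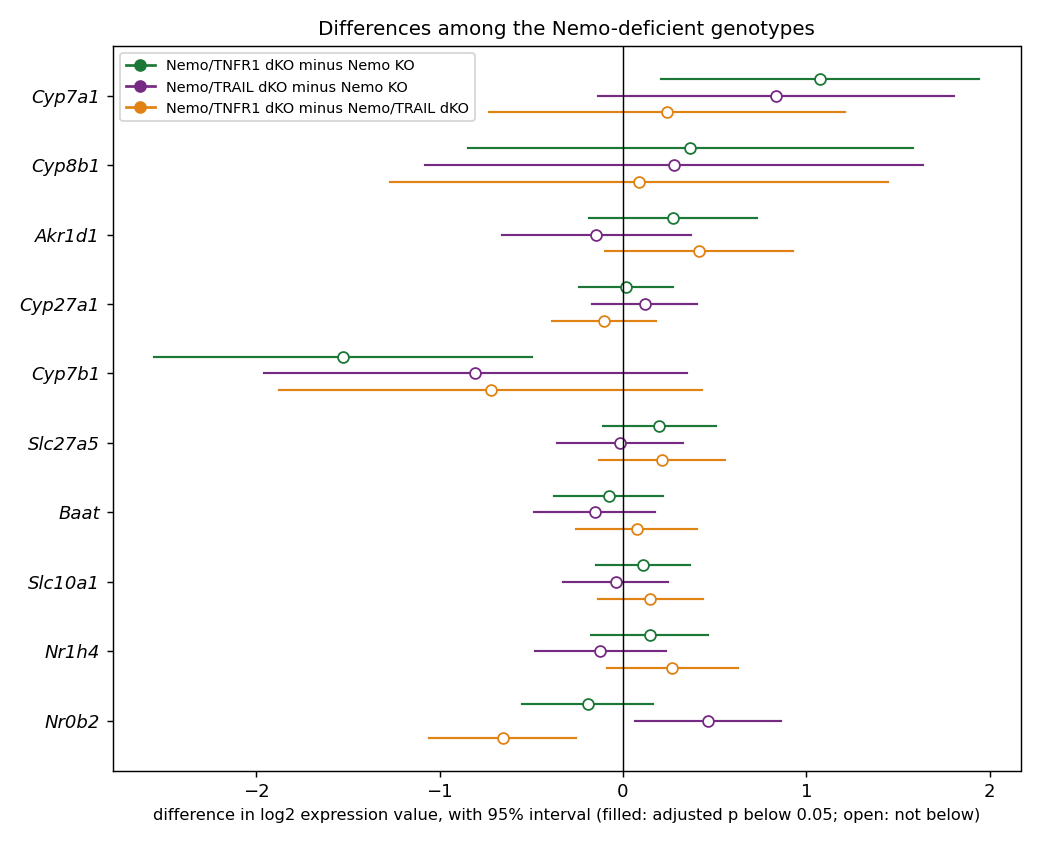
Difference in log2 expression value between Nemo-deficient genotypes (horizontal axis) for each gene, with 95% intervals from the limma fit; open points did not pass. No point is filled, and Cyp7b1 at -1.53 and Cyp7a1 at 1.08, both Nemo/TNFR1 dKO minus Nemo KO, lie farthest from 0.

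The genes also varied together within genotypes. Over the deviations of the 11 arrays from their group means, 22 of the 45 pairs had a Pearson r above 0.5 and 6 had one below -0.5 (19 and 3 without the 2 arrays farthest from the median of the pair's first gene), given as a description, since arrays of a group share a genotype and an array code. Slc27a5 and Akr1d1 were the closest pair (r = 0.977, Spearman 0.945, and r = 0.94 without the 2 arrays farthest from the median). Cyp27a1 and Slc27a5 (r = 0.926, Spearman 0.818, 0.752 without the 2 arrays) and Cyp8b1 and Slc10a1 (r = 0.883, Spearman 0.918, 0.817) followed a like pattern. Cyp7b1 ran the other way: its r with Akr1d1 was -0.837 (Spearman -0.8, and -0.653 without the 2 arrays) and its 9 values ran from there to 0.573, the last with Nr0b2. Of the 9 pairs of Cyp7b1, 8 were negative, and 6 without the 2 arrays. Of those of Nr0b2, 7 were negative, and 3 without the 2 arrays: with Cyp27a1 its r turned to 0.603, against -0.498 over all arrays. The 2 arrays follow from the pair's first gene and can differ from pair to pair. The direction of several Nr0b2 pairs thus depended on which arrays were kept. In Nemo/TNFR1 dKO, replicate 1 was the highest of the 3 arrays for 7 of the 10 genes and the lowest for Cyp7b1 and Nr0b2. In Nemo KO, replicate 3 was the lowest for all 10. Nemo/TRAIL dKO replicate 2 was the higher of its 2 arrays for 8 genes, and WT replicate 1 was the highest of its 3 for 8.

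**Figure D4:**
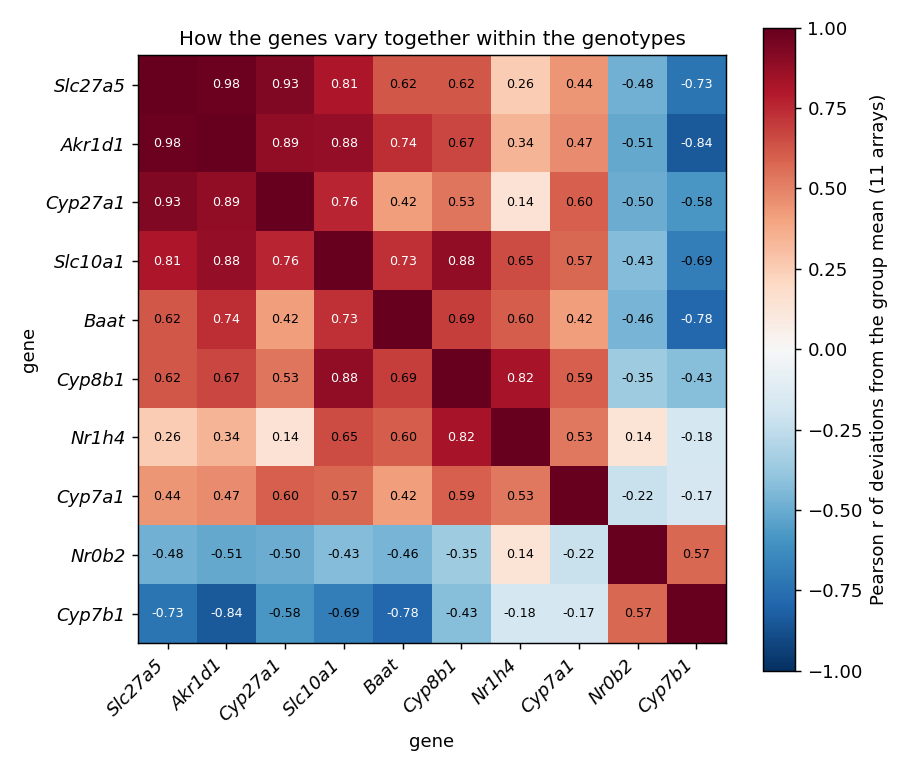
Pearson correlation of the deviations from the group mean over 11 arrays for each pair of genes on both axes, with red for positive and blue for negative values. Slc27a5, Akr1d1, Cyp27a1 and Slc10a1 form a red block with values up to 0.977, and the rows of Cyp7b1 and Nr0b2 are mostly blue. For Nr0b2, 3 of its 9 pairs were negative when each pair left out the 2 arrays farthest from the median of its first gene.

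Outside the 10, the genes whose log2 values followed each most closely over the 11 arrays were looked up among single-symbol genes, with Pearson r as a description. Each named gene was picked for its high r among 19938 genes, and the values include the differences between genotypes. How high r would run by chance was not tested. Cyp7b1 was followed by C8b, a complement component (r = 0.99), Nrp1 (0.978) and Tmem30a (0.971). Slc10a1 was followed by Nlrp6 (0.988), Pbld2 (0.978) and Cyp2c37 (0.974), and Baat by Cdadc1 (0.982), Sugct (0.981) and Slc25a48 (0.978). Nr0b2 had Noa1 (0.95), Map2k5 (0.941) and Trip4 (0.934). The highest r was 0.97 for Akr1d1 (Fah, of tyrosine breakdown), 0.968 for Slc27a5 (Sardh, of sarcosine breakdown), 0.957 for Cyp8b1 (Mcee), 0.953 for Cyp27a1 (Snora62), 0.903 for Cyp7a1 (Slc27a1) and 0.903 for Nr1h4 (Mycs).

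The rest of the pathway was read from lists written from general knowledge. The counts of these and the later lists stand beside the share of all probe sets. In Nemo/TNFR1 dKO, Nemo/TRAIL dKO and Nemo KO, 3.35%, 2.64% and 3.21% were called lower than WT and 5.83%, 4.91% and 6.08% higher. Of 16 other bile acid synthesis genes, 2 fell in Nemo/TNFR1 dKO, 1 in Nemo/TRAIL dKO and 4 in Nemo KO, and none rose, with list medians of -0.13, -0.18 and -0.20. Leaving out WT replicate 3, 1, 1 and 2 fell. Akr1c14, a 3-alpha-hydroxysteroid dehydrogenase, fell in each: by -0.64 ± 0.13 in Nemo/TNFR1 dKO (adjusted p = 0.0162), -0.81 ± 0.15 in Nemo/TRAIL dKO (adjusted p = 0.0104) and -0.70 ± 0.13 in Nemo KO (adjusted p = 0.0105). It passed in 8, 10 and 11 of the 11 fits without 1 array. Cyp2c70, which makes the muricholic acids of mice, fell in Nemo/TNFR1 dKO by -0.32 ± 0.08 (adjusted p = 0.0375, lost in 8 of the 11 fits), and differed by -0.18 ± 0.09 in Nemo/TRAIL dKO (adjusted p = 0.301) and -0.26 ± 0.08 in Nemo KO (adjusted p = 0.0798). In Nemo KO the side-chain oxidase Acox2 (-0.36 ± 0.09, adjusted p = 0.0432) and the brain cholesterol hydroxylase Cyp46a1 (-0.36 ± 0.10, adjusted p = 0.0455) each lost the call in 10 of the 11 fits. The signal of Cyp46a1 was low, with means of 6.05 in Nemo KO and 6.41 in WT beside array medians of 6.262 to 6.318. Acox2 differed by -0.27 ± 0.09 in Nemo/TNFR1 dKO (adjusted p = 0.116) and -0.20 ± 0.10 in Nemo/TRAIL dKO (adjusted p = 0.322), and Cyp46a1 by -0.26 ± 0.10 (adjusted p = 0.14) and -0.37 ± 0.11 (adjusted p = 0.0712).

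Among 17 bile acid and sterol transporters, 3 fell and 1 rose in Nemo/TNFR1 dKO, 3 fell and 3 rose in Nemo/TRAIL dKO, and 4 fell and 2 rose in Nemo KO, with list medians of -0.14, -0.29 and -0.09. Leaving out WT replicate 3, the medians were -0.0037, -0.15 and 0.02, the last with the sign turned, and 3, 3 and 3 fell. The organic anion transporter Slco1a1 fell by -1.48 ± 0.21 in Nemo/TNFR1 dKO (adjusted p = 0.00266), -1.63 ± 0.23 in Nemo/TRAIL dKO (adjusted p = 0.00369) and -1.29 ± 0.21 in Nemo KO (adjusted p = 0.00472). Abcb4, the phospholipid exporter of bile and an FXR target, rose by 0.81 ± 0.08 in Nemo/TNFR1 dKO (adjusted p = 0.000672), 0.79 ± 0.09 in Nemo/TRAIL dKO (adjusted p = 0.00147) and 0.75 ± 0.08 in Nemo KO (adjusted p = 0.000884). Both genes passed in every fit without 1 array in all 3 comparisons. The sterol exporter Abcg8 fell by -0.57 ± 0.14 in Nemo/TNFR1 dKO (adjusted p = 0.0372), -0.71 ± 0.16 in Nemo/TRAIL dKO (adjusted p = 0.0266, lost in 3 of 11 fits) and -0.86 ± 0.14 in Nemo KO (adjusted p = 0.00565). The uptake transporter Slco1b2 fell in each too, by -0.62 ± 0.10 in Nemo/TNFR1 dKO (adjusted p = 0.00536), -0.59 ± 0.11 in Nemo/TRAIL dKO (adjusted p = 0.014) and -0.56 ± 0.10 in Nemo KO (adjusted p = 0.00875). The values of Abcg8 in Nemo/TNFR1 dKO and of Slco1b2 in the other 2 genotypes stand outside the naming rule. So do the remaining genes of this list that passed. Abcc4 rose by 0.68 ± 0.14 in Nemo/TRAIL dKO (adjusted p = 0.0164). Ephx1 rose by 0.44 ± 0.11 in Nemo/TRAIL dKO (adjusted p = 0.0403) and 0.50 ± 0.10 in Nemo KO (adjusted p = 0.0129). Slco2b1 fell by -0.48 ± 0.12 in Nemo KO (adjusted p = 0.0363). The bile salt export pump Abcb11, named outside the rule because it is the textbook FXR target, differed by -0.37 ± 0.12 in Nemo/TNFR1 dKO (adjusted p = 0.106), -0.46 ± 0.14 in Nemo/TRAIL dKO (adjusted p = 0.0817) and -0.44 ± 0.12 in Nemo KO (adjusted p = 0.058) and did not pass.

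Of 22 measured receptors and regulators, 3 fell in Nemo/TNFR1 dKO, 4 in Nemo/TRAIL dKO and 6 in Nemo KO, and none rose. Those counts were 1, 1 and 5 when WT replicate 3 was left out. Klb, the coreceptor through which intestinal FGF15 represses Cyp7a1, differed by -0.64 ± 0.18 in Nemo/TNFR1 dKO (adjusted p = 0.0563), and fell by -1.15 ± 0.20 in Nemo/TRAIL dKO (adjusted p = 0.00869, lost in 1 of 11 fits) and by -0.998 ± 0.179 in Nemo KO (adjusted p = 0.00813). Nr5a2 fell by -0.31 ± 0.07 in Nemo/TNFR1 dKO (adjusted p = 0.0291, lost in 5 of 11 fits) and -0.35 ± 0.08 in Nemo/TRAIL dKO (adjusted p = 0.0338, lost in 8). In Nemo KO, where it was named after its value was seen, it fell by -0.40 ± 0.07 (adjusted p = 0.0098). Its binding was not measured, and its part in the Nr0b2 and Cyp8b1 values was not tested. Cebpa, a liver transcription factor, differed by -0.44 ± 0.15 in Nemo/TNFR1 dKO (adjusted p = 0.115) and fell by -0.70 ± 0.17 in Nemo/TRAIL dKO (adjusted p = 0.0384, lost in 9 of 11 fits) and -0.67 ± 0.15 in Nemo KO (adjusted p = 0.0239, lost in 4). Foxa1, another, fell by -0.62 ± 0.15 both in Nemo/TNFR1 dKO (adjusted p = 0.0297, lost in 4) and in Nemo KO (adjusted p = 0.0284, lost in 5), and differed by -0.61 ± 0.16 in Nemo/TRAIL dKO (adjusted p = 0.0546). Hnf4a, which drives several of these genes, differed by -0.09 ± 0.08 in Nemo/TNFR1 dKO, -0.11 ± 0.09 in Nemo/TRAIL dKO and 0.04 ± 0.08 in Nemo KO (adjusted p = 0.537, 0.544 and 0.759), a gene likewise chosen after its values were seen.

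Other FXR target genes moved in both directions or not at all. Of 18 measured, 1 fell and 2 rose in Nemo/TNFR1 dKO, 1 fell and 1 rose in Nemo/TRAIL dKO, and 1 fell and 2 rose in Nemo KO, with medians of -0.08, -0.01 and -0.03. Leaving out WT replicate 3, 1 rose in Nemo/TNFR1 dKO and none fell in Nemo/TRAIL dKO. Abcb4 was among those that rose in each. Mafg, a transcriptional repressor of bile acid synthesis, fell in each, by -0.34 ± 0.07 in Nemo/TNFR1 dKO (adjusted p = 0.0159, lost in 3 of 11 fits), -0.31 ± 0.08 in Nemo/TRAIL dKO (adjusted p = 0.043, lost in 10) and -0.37 ± 0.07 in Nemo KO (adjusted p = 0.0108). Pltp, a plasma lipid transfer protein, rose by 0.42 ± 0.11 in Nemo/TNFR1 dKO (adjusted p = 0.0399, lost in 10 of 11), and the proteoglycan Sdc1 by 0.45 ± 0.10 in Nemo KO (adjusted p = 0.0246, lost in 4). Neither passed in the other genotypes, where Pltp differed by 0.31 ± 0.12 in Nemo/TRAIL dKO (adjusted p = 0.178) and 0.23 ± 0.11 in Nemo KO (adjusted p = 0.225), and Sdc1 by 0.33 ± 0.10 in Nemo/TNFR1 dKO (adjusted p = 0.0818) and 0.20 ± 0.12 in Nemo/TRAIL dKO (adjusted p = 0.372).

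Of 8 measured bile acid detoxification genes, 2 fell and 2 rose in Nemo/TNFR1 dKO, 1 fell and 1 rose in Nemo/TRAIL dKO, and 2 fell and 1 rose in Nemo KO. The cytochrome Cyp2b10, a target of the xenobiotic receptor CAR, rose by 2.12 ± 0.47 in Nemo/TNFR1 dKO (adjusted p = 0.0226, lost in 3 of 11 fits), 2.41 ± 0.53 in Nemo/TRAIL dKO (adjusted p = 0.0237) and 1.92 ± 0.47 in Nemo KO (adjusted p = 0.0339, lost in 7). Its 2 Nemo/TRAIL dKO arrays lay far apart: the difference from WT was 3.42 (adjusted p = 0.0104) without replicate 1 and 1.39 (adjusted p = 0.118) without replicate 2, and without WT replicate 3 it was 2.13 (adjusted p = 0.0633). Cyp2b9, a paralog of it, rose by 4.35 ± 0.94 in Nemo/TNFR1 dKO (adjusted p = 0.0192), a call lost without any of the 3 Nemo/TNFR1 dKO arrays, with a range of 3.41 without WT replicate 1 to 5.18 without WT replicate 2. Its differences in Nemo/TRAIL dKO (2.82 ± 1.05, adjusted p = 0.153) and Nemo KO (2.45 ± 0.94, adjusted p = 0.143) did not pass. How far RNA of these related genes binds each other's probes was not tested. The bile acid sulfotransferase Sult2a8 fell by -1.14 ± 0.19 in Nemo/TNFR1 dKO (adjusted p = 0.00601), -1.33 ± 0.22 in Nemo/TRAIL dKO (adjusted p = 0.00641, lost in 1) and -1.32 ± 0.19 in Nemo KO (adjusted p = 0.00309). Ugt2b1, a glucuronosyltransferase, fell by -0.31 ± 0.08 in Nemo KO (adjusted p = 0.0356, lost in 9) and, named there after its value was seen, by -0.50 ± 0.08 in Nemo/TNFR1 dKO (adjusted p = 0.00402), and differed by -0.28 ± 0.09 in Nemo/TRAIL dKO (adjusted p = 0.087). Leaving out WT replicate 3, the detoxification genes that rose numbered 1, 0 and 0 in Nemo/TNFR1 dKO, Nemo/TRAIL dKO and Nemo KO. Among the Nemo-deficient genotypes no gene of these 5 lists passed in any comparison. The widest difference of a synthesis gene there was that of Cyp39a1, an oxysterol 7-alpha-hydroxylase, at 1.10 ± 0.50 in Nemo/TNFR1 dKO minus Nemo KO (adjusted p = 0.72).

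**Figure D5:**
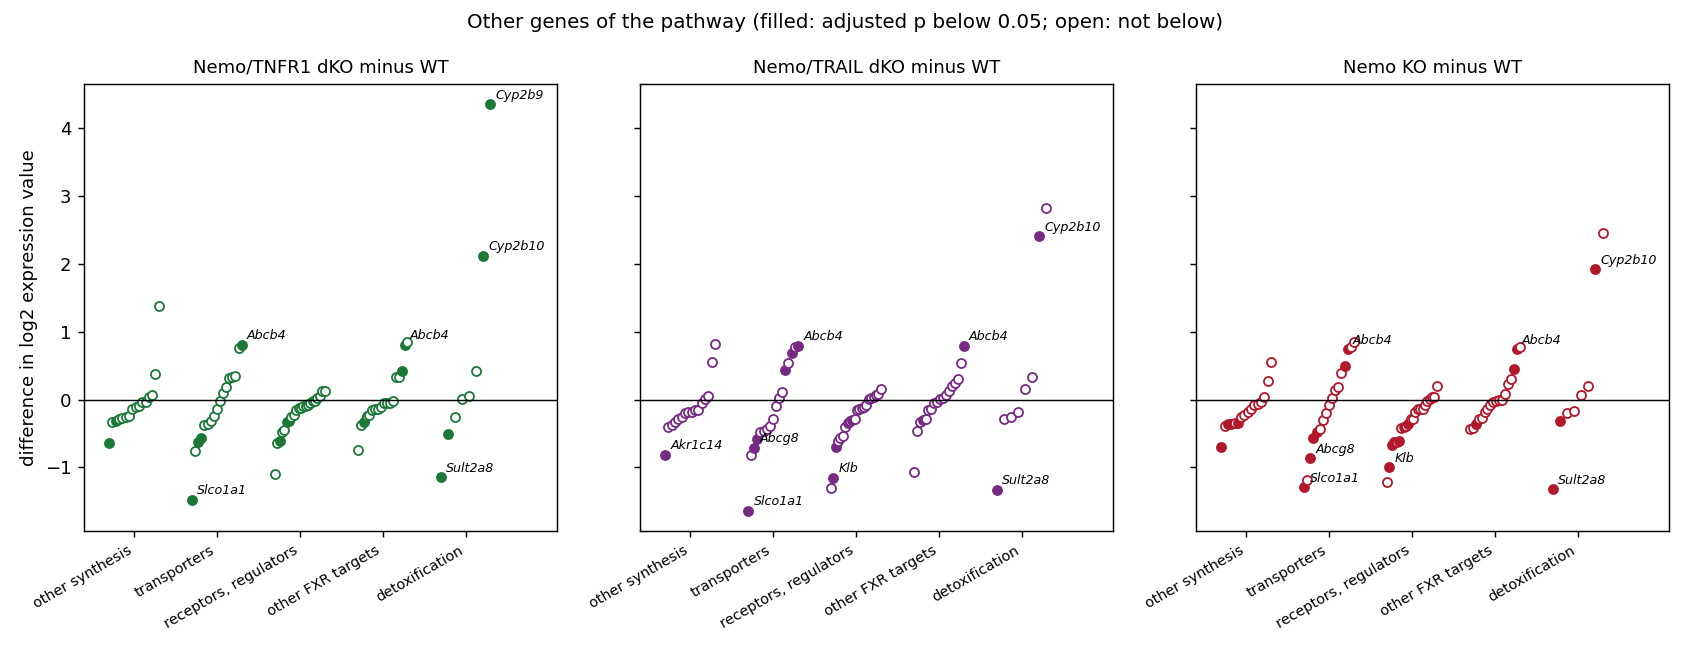
Difference in log2 expression value from WT (vertical axis) of the other pathway genes by list (horizontal axis), 1 panel per Nemo-deficient genotype; filled points passed at an adjusted p below 0.05, and those beyond 0.7 are named. Slco1a1 and Sult2a8 are low and Abcb4 and Cyp2b10 high in all 3 panels.

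Clock genes were read because Cyp7a1 cycles through the day, and the labels used here do not tell the hour of sampling. Of 16 measured, 1 fell and 1 rose in Nemo/TNFR1 dKO, 1 fell and 1 rose in Nemo/TRAIL dKO, and 1 fell and 2 rose in Nemo KO. Per1 rose by 1.05 ± 0.23 in Nemo/TNFR1 dKO (adjusted p = 0.0188), 1.04 ± 0.25 in Nemo/TRAIL dKO (adjusted p = 0.0363) and 1.15 ± 0.23 in Nemo KO (adjusted p = 0.0121), lost in 4, 6 and 1 of the 11 fits. Cry1 fell by -0.78 ± 0.13 in Nemo/TNFR1 dKO (adjusted p = 0.00574), -0.76 ± 0.15 in Nemo/TRAIL dKO (adjusted p = 0.0132, lost in 1) and -0.50 ± 0.13 in Nemo KO (adjusted p = 0.0432, lost in 7). Bhlhe40 differed by 0.57 ± 0.26 in Nemo/TNFR1 dKO (adjusted p = 0.229) and 0.61 ± 0.29 in Nemo/TRAIL dKO (adjusted p = 0.27), and rose in Nemo KO by 1.17 ± 0.26 (adjusted p = 0.0216, lost in 4). With WT replicate 3 left out, 1 clock gene fell in Nemo/TNFR1 dKO, 1 fell in Nemo/TRAIL dKO and 1 rose in Nemo KO. Their part in the Cyp7a1 values was not tested.

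Macrophage and stellate cell markers rose in the same arrays in which these genes fell. Of 10 measured macrophage markers, 8 rose in Nemo/TNFR1 dKO, 7 in Nemo/TRAIL dKO and 8 in Nemo KO (6, 5 and 7 without WT replicate 3), and the mean of the list per array ran from 8.64 to 8.85, from 8.66 to 8.76 and from 8.69 to 8.96 in these genotypes and from 7.87 to 7.95 in WT. Of 10 stellate cell and fibroblast markers, 9, 8 and 9 rose, with array means of 9.34 to 9.86, 9.42 to 9.62 and 9.54 to 9.77 and 8.21 to 8.78 in WT. Of 10 cholangiocyte markers 1, 2 and 1 rose, of 8 endothelial markers 1, 2 and 1 rose (1 fell in Nemo/TRAIL dKO), and of 9 lymphocyte markers 3, 1 and 1. Beside these counts, 5.83%, 4.91% and 6.08% of all probe sets were called higher. With WT replicate 3 left out, 0, 1 and 0 cholangiocyte, 1, 2 and 2 endothelial and 2, 1 and 0 lymphocyte markers rose. In that setting 1 endothelial marker fell in each genotype. Of the 15 hepatocyte markers 1 fell, in Nemo/TNFR1 dKO (0 with WT replicate 3 left out), and none rose, and none of 10 acinar markers passed in any genotype. The part of these cell types in the falls of Nr0b2, Cyp7b1, Baat and Slc10a1 was not tested.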

How the data were processed

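The values are log2 expression values as deposited, for 35556 probe sets on 11 arrays, which the authors made with RMA per the submitters' processing notes (version not given in the sources used here). Groups followed the genotype in the labels. The platform annotation gave 21789 probe sets a single symbol, 1621 several and 12146 none. With R 4.3.3 and limma 3.58.1, all arrays and probe sets, unfiltered, entered a single linear model with the 4 group means as terms (residual degrees of freedom 7, prior 2.51), and two-sided p-values were adjusted by Benjamini-Hochberg within each of 6 comparisons. A gene passed at an adjusted p below 0.05. Precision is limited by the number of arrays, with a median SE of log2 differences of 0.102 where both groups had 3 arrays and 0.114 where one had 2. The genes and lists were chosen with earlier results of these data known, and counts of a list are descriptions beside all probe sets. The text names all 10 genes and, per list and comparison, up to 3 genes that passed with the largest difference. Promoters came from RefSeq (GRCm38.p6). The fit was tested on simulated data. Alternatives were quantile normalization, median centring, brighter probe sets, single-symbol probe sets, a variance trend, a replicate block, only the 2 groups compared, and each array left out. Counts of list genes without WT replicate 3 were added after the data were seen. Background correction could not be varied on RMA values, and the array code could not be fitted because it follows genotype.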

Additional observations from a re-analysis of the deposited data

How the results depend on the processing

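Of the 10 genes, the number that passed was 3 in each comparison with WT. In Nemo/TNFR1 dKO against WT it was 5 with probe sets above the median signal, 5 with single-symbol probe sets and 2 to 7 with 1 array left out. In Nemo/TRAIL dKO against WT it was 0 with only the 2 groups compared, 5 with probe sets above the median signal, 5 with single-symbol probe sets, 1 with the replicate block and 1 to 6 with 1 array left out. In Nemo KO against WT it was 5 with median centring, 5 with probe sets above the median signal, 5 with a variance trend, 6 with single-symbol probe sets, 6 with only the 2 groups compared and 1 to 7 with 1 array left out. The F test called 3, and 1 to 6 with 1 array left out. Among the Nemo-deficient genotypes the count was 0 under every setting run. Of all probe sets, 3263 passed in Nemo/TNFR1 dKO against WT (1831 with only the 2 groups compared, 1926 to 3342 with 1 array left out), 2684 in Nemo/TRAIL dKO against WT (1244 and 823 to 2884) and 3304 in Nemo KO against WT (1933 to 3549 with 1 array left out). Of all probe sets, 12 passed in Nemo/TNFR1 dKO against Nemo KO (4 with single-symbol probe sets, 10 to 15 with 1 array left out), 2 in Nemo/TRAIL dKO against Nemo KO (1 with only the 2 groups compared, 0 to 5) and 17 between the double knockouts (9 with only the 2 groups compared, 6 with single-symbol probe sets, 11 to 17). Fewer probe sets are tested with the brighter or single-symbol sets, and fewer arrays enter the fit with 2 groups. The cause of the changed counts was not tested for any setting. For arrays of the same replicate number, the correlations of their deviations from the group means ran from -0.117 to 0.0435 over 15 pairs. In Nemo/TRAIL dKO, replicates 1 and 2 carry the array numbers 7 and 9, so replicate 2 may not match the other second arrays. The deviations of these 2 arrays also mirror each other by construction. The 15 values are thus not independent and do not decide whether arrays were paired. With the replicate block the Cyp7a1 difference between Nemo/TRAIL dKO and WT turned to -0.0179, Slc10a1 lost its call in Nemo KO (adjusted p = 0.0593) and Cyp7b1 (adjusted p = 0.0929) and Slc10a1 (adjusted p = 0.0696) lost theirs in Nemo/TRAIL dKO. The differences that turned sign with 1 array left out were, against WT, Nr1h4 in Nemo/TNFR1 dKO (-0.0687 to 0.0742) and Cyp7a1 in Nemo/TRAIL dKO (-0.23 to 0.44). Of Nemo/TNFR1 dKO minus Nemo KO they were Cyp8b1 (-0.21 to 0.84), Cyp27a1 (-0.11 to 0.15) and Slc10a1 (-0.00382 to 0.18). Of Nemo/TRAIL dKO minus Nemo KO they were Akr1d1 (-0.40 to 0.11), Baat (-0.36 to 0.0531), Cyp8b1 (-0.25 to 0.81), Nr1h4 (-0.31 to 0.0600), Slc10a1 (-0.21 to 0.13), Slc27a5 (-0.13 to 0.094), Slco1a4 (-0.17 to 0.92), Ppara (-0.0938 to 0.55), Cyp2b10 (-0.53 to 1.5) and Ciart (-0.44 to 1.77). Of Nemo/TNFR1 dKO minus Nemo/TRAIL dKO they were Baat (-0.13 to 0.28), Cyp27a1 (-0.22 to 0.031), Cyp7b1 (-1.49 to 0.0484), Cyp8b1 (-0.49 to 0.62), Slc10a1 (-0.0211 to 0.32), Cyp2b9 (-0.0296 to 3.09) and Nr1d1 (-0.0575 to 1.48). No other difference of the 10 genes turned sign in the settings run. The 10 genes have no second single-symbol probe set, so that alternative gave no value.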
